A study of Canis lupus familiaris with 2 samples.

Results

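NRF2, encoded by *NFE2L2*, is the transcription factor that drives antioxidant and detoxifying genes in epithelial cells. In unstressed cells KEAP1 holds NRF2 and presents it to a ubiquitin ligase for destruction, and oxidants or electrophiles that modify KEAP1 let NRF2 accumulate, pair with a small MAF protein and bind antioxidant response elements. Because this control acts on the stability of the NRF2 protein, RNA levels of *NFE2L2* and *KEAP1* need not follow its activity. The genes described here are *NFE2L2*, *KEAP1* and 8 common targets, 10 genes among the 23510 features of the deposited files. Of these, 9 were found by gene symbol. The tenth, *TXN*, was found as LOC474798, the row that carries its NCBI gene ID, and all 10 exceeded 1 FPKM in both cultures.

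RNA came from Madin-Darby canine kidney (MDCK) cells, an established dog kidney line that forms a sheet of columnar epithelium, grown on a semipermeable membrane in serum-containing medium up to day 3. One culture stood under 2-cm-high medium (2 cm H2O), which its label also calls cells without pressure, and the other under 50-cm-high medium (50 cm H2O). They are called the 2-cm and the 50-cm culture here. The study's methods describe a device with an upper and a lower chamber, and do not limit it to the 50-cm culture. Each group held 1 culture, so no value has a replicate, no difference could be set against replicate error, and no test was made. Differences are given as ratios, the FPKM value at 50 cm divided by that at 2 cm. FPKM scales the fragments on a gene by exon length and library size, so that genes of different length can be compared. No read counts were used here, but features below 0.1 FPKM lay on steps of whole reads, and of 574 such features 219 had a ratio within 0.2% of 1.098, the ratio of 1 read to 1 read. One read therefore added 9.77% more FPKM to a gene at 50 cm. All 6 epithelial markers examined lay between 211 and 1641 FPKM. The 7 fibroblast and 4 endothelial markers were each under 1 FPKM in both cultures, *PECAM1* being listed at 0, and the 3 leukocyte markers given here (*PTPRC*, *CD3E* and *LYZ*) were listed at 0.

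Of the 10 genes, 9 had a higher FPKM value at 50 cm (8 after quantile normalization, where *NQO1* crossed) and 1, *NFE2L2*, a slightly lower one. Of all 11057 features above 1 FPKM in both cultures, 52.6% were higher (51.5% after quantile normalization). Among features above 5 FPKM in both cultures, as all 10 genes were, 57.1% were higher. The median log2 ratio of the 10 genes was 0.31, a ratio of 1.24, whereas that of all such features was 0.01. The 3 thioredoxin genes had ratios of 1.32 to 1.70 and the 3 glutathione genes 1.08 to 1.35. The heme and quinone enzymes had 1.25 and 1.04, and the sensor and the factor 1.15 and 0.986. Only *TXNRD1* passed 1.5-fold, a mark that 2.13% of all features passed upward, 5.06% downward and 7.19% in all. None of the 10 passed 2-fold, which 0.389% of all features did upward, 1.28% downward and 1.67% in all. In bulk RNA, fewer cells carrying a transcript and less transcript per cell cannot be told apart.

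**Figure D1:**
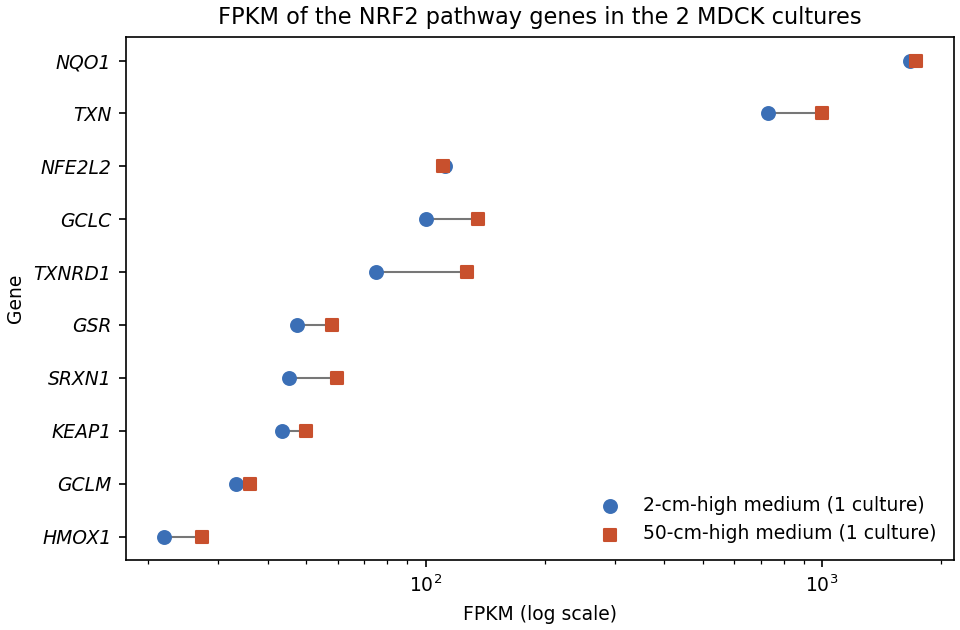
FPKM values on a log axis for each of the 10 genes, with a blue circle for the 2-cm culture and an orange square for the 50-cm culture (1 culture each, no error bars). On this axis *TXNRD1* moves furthest, from 74.9 to 127 FPKM, *NQO1* stays the most abundant, and *NFE2L2* is the only gene whose square lies to the left of its circle.

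*NFE2L2* had 112 FPKM at 2 cm and 111 FPKM at 50 cm (ratio 0.986, log2 ratio -0.02). Of all features above 1 FPKM in both cultures, 56.1% had a higher ratio. *KEAP1*, whose protein is the oxidant sensor and the substrate adaptor of the CUL3 ligase, had 43.4 and 50.0 FPKM (ratio 1.15, log2 ratio 0.21). The level of *NFE2L2* over that of *KEAP1* was 2.59 at 2 cm and 2.21 at 50 cm. The transcript of the factor was therefore the more abundant of the pair in both cultures.

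For scale, each ratio was set beside the 500 features nearest in mean log2 FPKM. Their median log2 ratio lay between 0.05 and 0.09 for the 10 genes, and their scaled median absolute deviation (MAD) between 0.14 and 0.21. This spread runs across genes and holds both measurement error and real differences, so it is not replicate error. *NFE2L2* lay 0.11 below the median of its neighbours and *KEAP1* 0.13 above, each less than 1 MAD. Of the 10 genes, 8 lay above the median of their neighbours and 2, *NFE2L2* and *NQO1*, below.

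*HMOX1*, the inducible heme oxygenase that turns heme into biliverdin, iron and carbon monoxide, had 21.8 FPKM at 2 cm and 27.3 FPKM at 50 cm (ratio 1.25, log2 ratio 0.32). It was the least abundant of the 10 genes in both cultures. Of its 500 neighbours, 41 had a higher ratio. Its constitutive relative *HMOX2* had 65.2 and 69.1 FPKM, so the inducible form stayed below the constitutive one, at 0.335 of its level at 2 cm and 0.395 at 50 cm.

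*NQO1*, the quinone reductase often used as a readout of NRF2, had 1666 FPKM at 2 cm and 1727 FPKM at 50 cm (ratio 1.04). Its log2 ratio of 0.05 lay 0.01 below the median of its neighbours, and turned to -0.02 when the cultures were quantile normalized. The gene ranked 39 among all features by FPKM at 2 cm and 41 at 50 cm. It thus held 58.0% of the summed FPKM of the 10 genes at 2 cm and 51.8% at 50 cm. The related reductase *NQO2* was far less abundant, with 33.5 and 40.3 FPKM.

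Glutathione is made from glutamate, cysteine and glycine, and glutamate-cysteine ligase carries out the limiting first step. *GCLC*, its catalytic subunit, had 100.4 FPKM at 2 cm and 135 FPKM at 50 cm (ratio 1.35, log2 ratio 0.43). *GCLM*, the modifier subunit that raises the efficiency of the enzyme, had 33.3 and 36.0 FPKM (ratio 1.08, log2 ratio 0.12). The subunits thus differed in their ratios. The level of *GCLC* over that of *GCLM* was 3.02 at 2 cm and 3.76 at 50 cm. *GSR*, the reductase that returns oxidized glutathione to its reduced form with NADPH, had 47.3 and 58.1 FPKM (ratio 1.23, log2 ratio 0.30). *GCLC* lay 1.89 MAD and *GSR* 1.28 MAD above the median of their neighbours, and *GCLM* 0.354 MAD above.

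The thioredoxin system reduces protein disulfides and feeds the peroxiredoxins that remove peroxides. *TXNRD1*, the cytosolic selenoprotein that reduces thioredoxin with NADPH, had 74.9 FPKM at 2 cm and 127 FPKM at 50 cm (ratio 1.70, log2 ratio 0.76). Only 0.995% of all features had a higher ratio, which put *TXNRD1* at rank 111 of 11057. Of its 500 neighbours, 3 had a higher ratio, and it lay 3.42 MAD above their median. *TXN*, cytosolic thioredoxin itself, had 730 FPKM at 2 cm and 1002 FPKM at 50 cm (ratio 1.37, log2 ratio 0.46). It lay 2.81 MAD above the median of its neighbours, of which 18 had a higher ratio. How the authors' mapping treated reads shared with copies of *TXN* elsewhere in the genome is not given in the sources used here. *SRXN1*, sulfiredoxin, which repairs overoxidized peroxiredoxins, had 45.3 and 59.9 FPKM (ratio 1.32, log2 ratio 0.40). The 3 genes of this system thus held 3 of the 4 highest ratios among the 10 genes, *GCLC* being the other one.

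**Figure D2:**
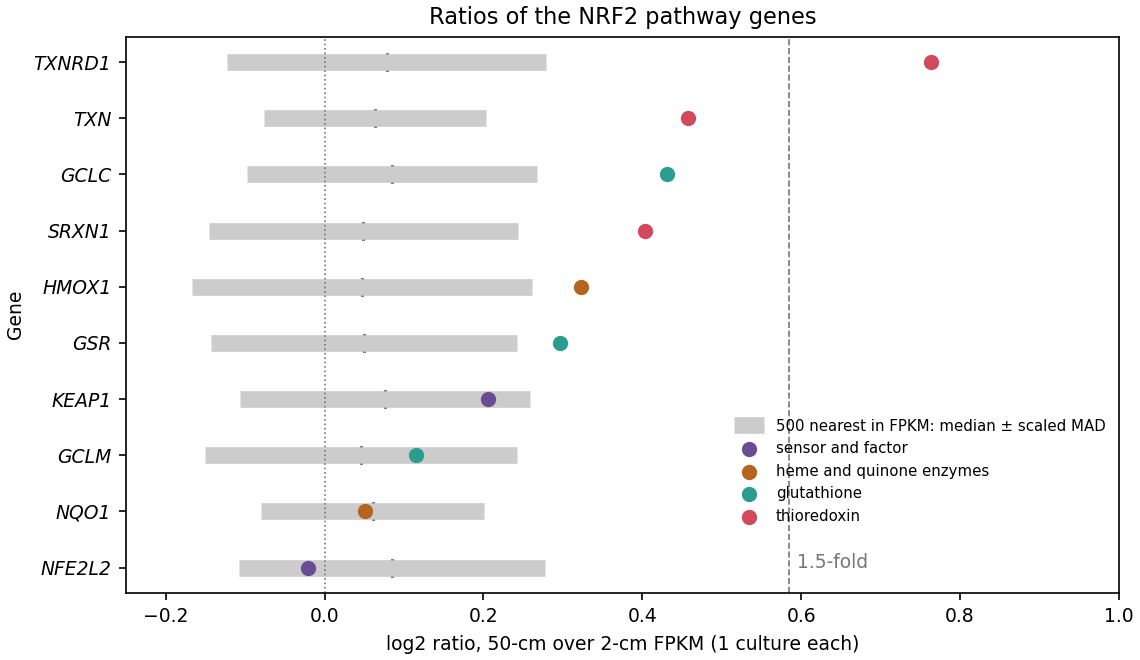
Log2 ratio (50 cm over 2 cm) of FPKM for each gene (coloured by role), with a grey bar for the median ± scaled MAD of the 500 features nearest in FPKM and a black tick at that median. The 6 genes from *GSR* to *TXNRD1* lie to the right of their grey bars and the other 4 within them, and only *TXNRD1* lies past the dashed line at 1.5-fold.

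The paralogue *TXNRD2*, the mitochondrial reductase, did not share the ratio of *TXNRD1*. It had 7.61 FPKM at 2 cm and 6.71 FPKM at 50 cm, so that the cytosolic form was 9.84 times its level in the first culture and 18.9 times in the second. *TXNRD3* had 9.92 and 10.3 FPKM, and mitochondrial *TXN2* had 92.8 and 94.3 FPKM. The order of levels within the 10 genes also differed between the cultures. At 2 cm *NFE2L2* had rank 3, ahead of *GCLC* and *TXNRD1*, whereas at 50 cm it had rank 5, behind both. *SRXN1* came just below *GSR* at 2 cm and just above it at 50 cm, a difference of 2.03 FPKM in the first culture and 1.76 FPKM in the second. The first 2 places (*NQO1*, *TXN*) and the last 3 (*KEAP1*, *GCLM*, *HMOX1*) were the same in both.

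Summed over the 10 genes, FPKM was 2875 at 2 cm and 3333 at 50 cm, or 0.479% and 0.543% of all FPKM. Without *NQO1* the sum was 1208 and 1606 FPKM, a ratio of 1.33, and *TXN* made up most of it. Without both genes it was 478 and 604 FPKM, a ratio of 1.26. The higher sum was thus not carried by the most abundant gene, *NQO1*, which was 60.6 FPKM higher at 50 cm. The largest difference among the 10 genes was that of *TXN*, the next most abundant, at 272 FPKM.

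**Figure D3:**
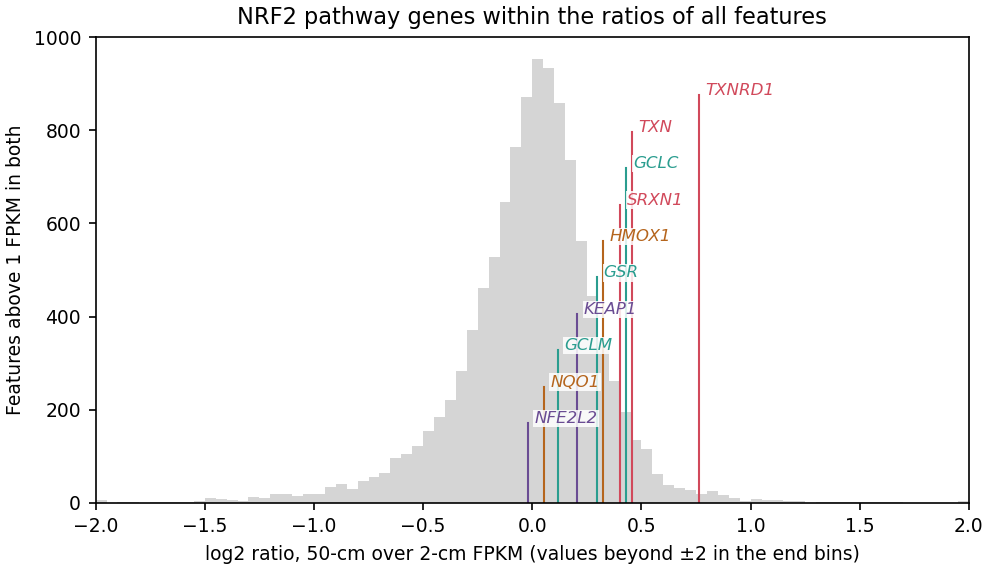
Histogram of log2 ratios (50 cm over 2 cm) for the 11057 features above 1 FPKM in both cultures, with a coloured line at each of the 10 genes; line heights only separate the names. The lines run from -0.02 (*NFE2L2*) to 0.76 (*TXNRD1*), and 9 of them lie to the right of the median of all features at 0.01, with *NQO1* at 0.05 (-0.02 after quantile normalization).

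Other genes of the pathway were grouped by role in 10 lists with 133 genes, of which 121 were matched to rows and 96 exceeded 1 FPKM in both cultures. Of these 96, 60 (62.5%) were higher at 50 cm, beside 52.6% of all features. Rescaling the cultures without the 10 most abundant features moves every gene down alike, and gave 52 of 96 (54.2%) beside 43.9% of all features. Recentring on the median of all features, which is also a uniform shift, gave 57 (59.4%) beside 50.0%. Their median log2 ratio was 0.07, below the 0.31 of the 10 genes. Of the 96, 4 passed 1.5-fold upward and 3 downward, where 2.13% and 5.06% of all features did so.

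Partners of NRF2 and the genes of its turnover had a median log2 ratio of 0.11 over 13 genes, none past 1.5-fold. Of these, 10 were higher (76.9%, beside 52.6% of all features). Under recentring, quantile normalization and rescaling without the 10 most abundant features the count was 9 (69.2%), because *CUL3* crossed to the other side. The shares of all features were then 50.0%, 51.5% and 43.9%. *MAFG*, a small MAF protein that dimerizes with NRF2, had the highest ratio of the list, with 11.7 and 16.8 FPKM (ratio 1.44). *BTRC*, which encodes a KEAP1-independent ligase adaptor for NRF2, had the lowest, with 5.61 and 4.34 FPKM. The other small MAF genes, singled out after their values were seen, lay close to *MAFG*: *MAFF* had 4.89 and 7.00 FPKM (ratio 1.43) and *MAFK* 3.77 and 5.15 FPKM (ratio 1.37). *BACH1*, the repressor that competes for the same elements, had 13.4 and 14.9 FPKM. All 3 small MAF genes were thus less abundant than *NFE2L2* in both cultures, and all were higher at 50 cm. *MAFG* lay 2.49 MAD above the median of its neighbours, *MAFF* 1.87 MAD and *MAFK* 1.78 MAD. At the low levels of *MAFF* and *MAFK* that MAD was 0.31 for each, beside 0.21 for *MAFG*.

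A list of enzymes that act on quinones, carbonyls and conjugates also holds other known NRF2 targets such as *OSGIN1*, *PIR* and *TRIM16*. The lists sort genes by role and not by whether NRF2 drives them, so these are not a full set of targets. This list had the median log2 ratio closest to that of the 10 genes, 0.27 over 13 genes. Of these, 11 were higher (84.6%, beside 52.6% of all features) and 2 lower. After quantile normalization 10 were higher (76.9%, beside 51.5%). *OSGIN1*, an oxidative stress-induced growth inhibitor, had 5.74 FPKM at 2 cm and 13.05 FPKM at 50 cm (ratio 2.27), which was rank 21 of 11057. *UGT1A6*, a glucuronosyltransferase, passed 1.5-fold with 1.10 and 1.73 FPKM, a level at which few reads may decide a ratio and the MAD of its neighbours was 0.42. Some further genes of this list, named after their values were seen, were higher at 50 cm by less than 1.5-fold. *PIR*, which encodes the nuclear protein pirin, had 195 and 283 FPKM (ratio 1.45), and the abundant prostaglandin reductase *PTGR1* had 785 and 1082 FPKM (ratio 1.38). *TRIM16*, matched by its gene ID, had 3.42 and 4.86 FPKM (ratio 1.42). The lower 2, named likewise, were *CBR4*, a carbonyl reductase, with 9.69 and 7.56 FPKM (ratio 0.780), and *ALDH7A1*, an aldehyde dehydrogenase, with 67.7 and 57.6 FPKM (ratio 0.850).

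The genes of glutathione supply and use split in both directions. Of 14 above 1 FPKM in both cultures, 10 were higher (71.4%, beside 52.6% of all features). Their median log2 ratio was 0.13. Of the 20 genes listed, 2 had no matched row, *GPX4* and *CHAC1*. *GGT1*, the cell-surface enzyme that breaks down extracellular glutathione, had 33.0 FPKM at 2 cm and 14.5 FPKM at 50 cm (ratio 0.440), the lowest ratio among the listed genes above 1 FPKM. *GPX2*, an epithelial glutathione peroxidase, had 4.37 and 7.61 FPKM (ratio 1.74). *SLC7A11*, the cystine importer, named here after its values were seen, had 17.1 and 21.3 FPKM (ratio 1.25). Among the 9 glutathione transferases above 1 FPKM in both cultures, 6 were lower and the median log2 ratio was -0.11. The higher ones made up 33.3%, beside 52.6% of all features. Of the 19 transferases listed, 7 had no matched row, *GSTA1* and *GSTM2* among them, and 3 did not exceed 1 FPKM in both cultures. *MGST3*, a microsomal member, had 147 and 85.8 FPKM (ratio 0.583) and was the only one past 1.5-fold. *GSTA4*, a cytosolic member named after its values were seen, had 39.8 and 30.9 FPKM (ratio 0.776).

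The other genes of the thioredoxin system had a median log2 ratio of 0.06 over 16 genes, none past 1.5-fold, in contrast to 0.46 for *TXNRD1*, *TXN* and *SRXN1*. The highest ratio was that of *TXNIP*, which binds and inhibits thioredoxin, with 17.4 and 23.8 FPKM (ratio 1.37). The lowest was that of *MSRB2*, a mitochondrial methionine sulfoxide reductase, with 23.2 and 19.4 FPKM. *PRDX1*, the peroxiredoxin most abundant in these cultures and named after its values were seen, had 1666 and 2025 FPKM (ratio 1.22), whereas *PRDX2*, named likewise, had 287 and 254 FPKM (ratio 0.884).

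NADPH feeds both reductases. Of 7 genes that supply it, 4 were higher (57.1%, beside 52.6% of all features) and the median log2 ratio was 0.03. After rescaling without the 10 most abundant features 3 were higher and the median was -0.02, beside -0.04 for all features, of which 43.9% were then higher. *IDH1*, the cytosolic isocitrate dehydrogenase, had 79.2 and 47.0 FPKM (ratio 0.593) and was the only one past 1.5-fold. *PGD*, the most abundant of the 7 and named after its values were seen, had 1092 and 909 FPKM (ratio 0.833). Among 9 heme and iron genes the median log2 ratio was 0.10 and none passed 1.5-fold, with 8 of 9 higher beside 52.6% of all features. The count was 6 after the same rescaling (43.9% of all features higher) and 7 after recentring on the median (50.0%). *FTH1*, the ferritin heavy chain, had the highest ratio, with 119 and 168 FPKM (ratio 1.41). *FECH*, which inserts iron into protoporphyrin to form heme, had the lowest, with 38.8 and 36.2 FPKM.

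The pumps that export conjugates were divided. *ABCC2*, an apical pump of glutathione and glucuronide conjugates, had 1.03 FPKM at 2 cm and 4.73 FPKM at 50 cm (ratio 4.58). Its value at 2 cm lay just above the minimum of 1 FPKM, where the MAD of its neighbours was 0.45. The other 4 pumps stayed within 1.5-fold, and the median log2 ratio of the 5 was -0.15. A list of superoxide and peroxide defence genes outside the glutathione and thioredoxin systems held the dismutases, catalase, *CCS*, *PARK7* and the sestrins, which are stress regulators. Of its 8 genes above 1 FPKM, 1 was higher, beside 52.6% of all features, the median log2 ratio was -0.18 and none passed 1.5-fold. After quantile normalization 2 were higher (51.5% of all features), and after rescaling without the 10 most abundant features none (43.9%). *SESN1* (ratio 0.991) and *PARK7* (ratio 0.989) lay close to 1. *CAT*, catalase, named after its values were seen, had 116 and 95.5 FPKM (ratio 0.822). *CCS*, the copper chaperone of superoxide dismutase, had the lowest ratio, with 15.2 and 12.0 FPKM, and *SOD2*, the mitochondrial dismutase, the highest, with 37.9 and 39.2 FPKM. Of 13 genes of superoxide-producing oxidases, only *CYBA* (144 and 143 FPKM) and *NOXA1* (22.4 and 22.6 FPKM) were above 1 FPKM in both cultures, and 6 were listed at 0 in both. The median log2 ratio of these 2 genes was 0.01, or -0.06 after quantile normalization.

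**Figure D4:**
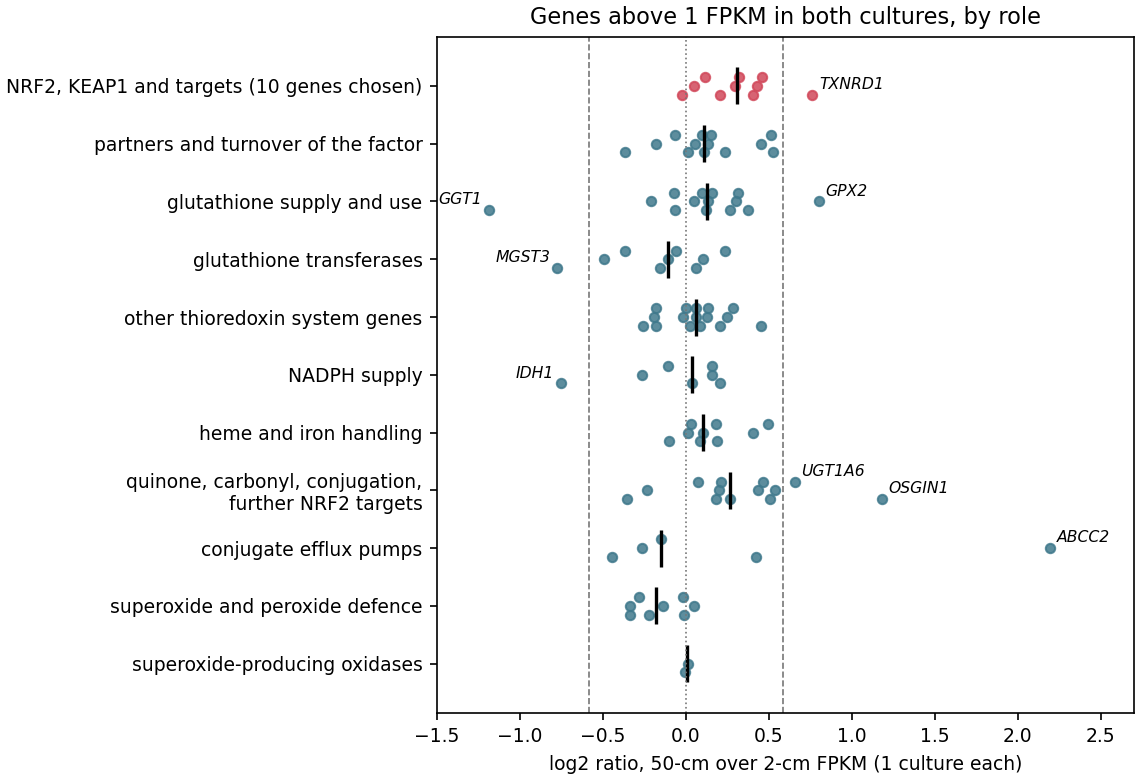
Log2 ratio (50 cm over 2 cm) of FPKM for every listed gene above 1 FPKM in both cultures, one row per role, with a black bar at each median and dashed lines at 1.5-fold in either direction. The 10 genes (red) centre on 0.31, the quinone, carbonyl and conjugation list with further NRF2 targets on 0.27, and the superoxide and peroxide defence genes on -0.18.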

How the data were processed

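The authors sequenced 1 stranded mRNA library per culture (single-end, 75 bases), aligned reads with TopHat 2.0.13 to the dog genome CanFam3.1, with the help of Bowtie 2 (2.2.3) and SAMtools (0.1.19), and deposited FPKM values from Cuffnorm 2.2.1. The gene annotation and the library scaling of Cuffnorm are not given in the sources used here. Rows were matched by symbol, then by NCBI gene ID (*TXN* and 4 listed genes) or by an older symbol (1 gene) through a RefSeq gene table of another assembly, from which no coordinates were taken. Ratios used no pseudocount. The FPKM minimum of 1 in both cultures follows the study's methods. With 1 culture per group, no p-value was computed. Genes of the wider lists were named when past 1.5-fold (at most 4 per list) or otherwise as the highest and lowest of their list, except where the text says otherwise. The 10 genes and the lists were chosen with earlier results of these data known. The relatives *HMOX2*, *NQO2*, *TXNRD2*, *TXNRD3*, *TXN2*, *BACH1* and *CUL3* are named for context. The alternatives were other minima (0, 0.1 and 5 FPKM), pseudocounts of 0.1 and 1, recentring, quantile normalization and rescaling without the 10 most abundant features. The scripts were tested on simulated data and ran under Python 3.11.15 with pandas 2.3.3, numpy 2.4.6 and, for plots, matplotlib 3.10.9.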

Additional observations from a re-analysis of the deposited data

How the results depend on the processing

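Under 8 alternative settings, the median log2 ratio of the 10 genes stayed between 0.26 and 0.31, 1 gene passed 1.5-fold and none 2-fold, and 8 or 9 were higher at 50 cm. The share of all features that were higher ran from 43.9% to 57.1% over these settings. The minima of 0, 0.1 and 5 FPKM could not change the values of the 10 genes, which all lay above 5 FPKM. Their median was 0.31 and 0.30 with pseudocounts of 0.1 and 1, and 0.30 after recentring. It was 0.26 after quantile normalization and after rescaling without the 10 most abundant features. The log2 ratio of *TXNRD1* ran from 0.70 to 0.76. That of *NQO1* ran from -0.02 to 0.05, and that of *NFE2L2* from -0.09 to -0.02. Counts of listed genes past 1.5-fold moved more. With a minimum of 0 FPKM they were 5 rather than 2 for glutathione supply and use, 1 rather than 0 for the partners of NRF2 and 3 rather than 0 for the oxidases, the last being 1 at 0.1 FPKM. With a minimum of 5 FPKM they were 0 rather than 1 for the pumps, 1 rather than 2 for glutathione supply and use and 1 rather than 2 for the list of quinone and carbonyl enzymes, since fewer genes remained. The last count was also 1 with a pseudocount of 1, but 3 with a minimum of 0 or 0.1 FPKM and after quantile normalization, and quantile normalization gave 1 partner of NRF2 past 1.5-fold. The share of all features past 1.5-fold was not computed at these settings, so these counts have no such share beside them. The features compared numbered 14306 at a minimum of 0 FPKM and 8751 at 5 FPKM, beside 11057 at 1 FPKM. Matching rows by symbol only, an alternative added after the data were seen, left 9 genes with a median of 0.30. No paired analysis was possible because each group has 1 culture. For the same reason no replicate could be left out. Read numbers are unknown, so no counting interval was computed, and ratios near 1 FPKM are the least certain.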
